A study of Mus musculus with 8 samples.

Results

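The 6 genes described here are Cxcl1, Cxcl2, Cxcl3, Ppbp, Pf4 and Cxcr2, of 31053 genes in the count matrices. They were chosen by name and matched by gene symbol, and each symbol was found. They were measured by droplet single-cell RNA sequencing of CD45+ cells, which are mostly leukocytes, isolated with magnetic beads from the tumours of glioma-bearing mice (4 samples in the labels) and from normal mouse brain (4 control samples). The labels give no strain, sex, age, genotype or glioma line, no treatment is named for either group, and the kit was one of a pair of 3′ chemistry versions. All samples of a group lie in 1 matrix with no map from droplet barcodes to samples, so each group is 1 pooled library and no test between groups could be run. Intervals below are 95% and exact; they hold the error of counting UMIs or barcodes and nothing of the spread between animals.

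CXC chemokines are small secreted proteins that direct leukocyte migration through G protein-coupled receptors. In the mouse, CXCL1, CXCL2 and CXCL3 carry the ELR motif ahead of the first cysteines and bind CXCR2, the receptor through which neutrophils leave the bone marrow and enter inflamed tissue. Ppbp encodes pro-platelet basic protein, which is processed to another CXCR2 ligand, and Pf4 encodes platelet factor 4 (CXCL4), which lacks that motif; both are known best as contents of platelet alpha granules. Macrophages and endothelial cells transcribe the ELR chemokine genes after stimuli that activate NF-kB, and Pf4 is a known transcript of border-associated macrophages, the macrophages of the meninges, perivascular spaces and choroid plexus.

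The 5 ligand genes lie on the plus strand of 1 stretch of chromosome 5 (GRCm38, GENCODE annotation). In order they are Ppbp at chr5:90768518-90770063, Pf4 at chr5:90772435-90773383, Cxcl3 at chr5:90786103-90789600, Cxcl1 at chr5:90891241-90893115 and Cxcl2 at chr5:90903871-90905938. Cxcr2 lies apart, on the plus strand at chr1:74153989-74161246. The promoter stretches below, from RefSeq (GRCm38.p6, plus strand), run from base -110 to base -21 ahead of the RefSeq start and are shown because the ligands differ in 1 motif of the NF-kB type. Capitals mark that motif, GGAATTTCC, and the TATA-box motif TATAAA.
Cxcl1, chr5:90891135-90891224: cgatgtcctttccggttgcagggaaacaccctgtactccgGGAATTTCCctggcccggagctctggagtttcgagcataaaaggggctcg
Cxcl2, chr5:90903789-90903878: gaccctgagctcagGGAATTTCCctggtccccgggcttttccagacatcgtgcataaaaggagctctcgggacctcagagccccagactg
Cxcl3, chr5:90785991-90786080: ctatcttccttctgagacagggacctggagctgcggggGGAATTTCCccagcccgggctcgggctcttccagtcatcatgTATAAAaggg
Ppbp, chr5:90768408-90768497: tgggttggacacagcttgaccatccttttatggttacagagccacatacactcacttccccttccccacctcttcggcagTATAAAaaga
Pf4, chr5:90772325-90772414: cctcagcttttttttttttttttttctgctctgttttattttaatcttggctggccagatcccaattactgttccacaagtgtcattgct

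The 9-base motif began at base -70 in Cxcl1, -96 in Cxcl2 and -72 in Cxcl3, counted from the RefSeq start. For Cxcl2 that start lies inside the GENCODE gene: the stretch ends at 90903878 and the gene begins at 90903871. Its position is therefore nearer to the GENCODE start than to the RefSeq start. It was not found, on either strand, in the 250 bases ahead of Ppbp, Pf4 or Cxcr2. Among 32851 RefSeq promoters of that length, 94 held it on either strand, which is 0.286%. It lies within a match to the longer NF-kB consensus in all 3 of its genes, and 7.25% of promoters held that consensus. The 6-base motif began at base -30 in Cxcl3 and in Ppbp, where it also began at base -8, and 12.4% of promoters held it on either strand. These matches describe sequence only, and binding was not measured.

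**Figure D1:**
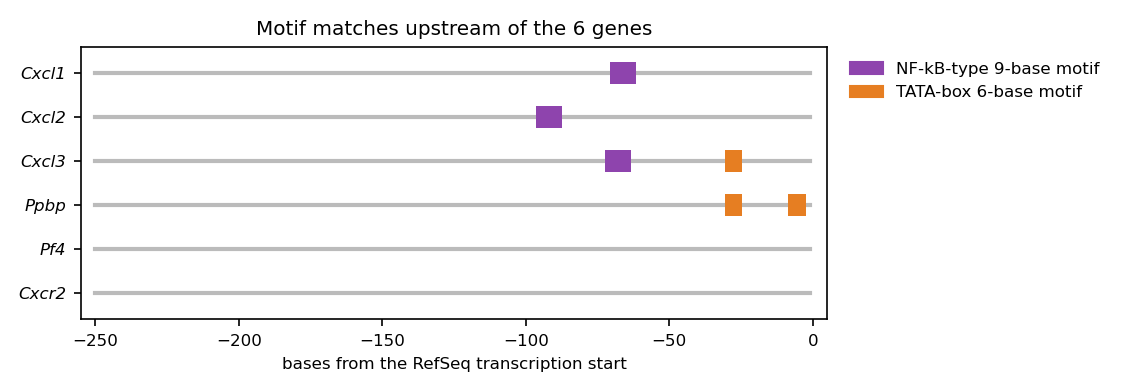
Position of motif matches in the 250 bases ahead of each gene (horizontal axis, bases from the RefSeq transcription start; 1 line per gene). The NF-kB-type motif stands at base -70, -96 and -72 in Cxcl1, Cxcl2 and Cxcl3, and on no other line.

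Barcodes with at least 1000 UMIs (unique molecular identifiers, 1 per captured transcript) and at most 10% mitochondrial UMIs were kept. The glioma library held 159689787 UMIs, 11049 kept barcodes and a median of 11332 UMIs per kept barcode, against 124023146 UMIs, 13680 barcodes and a median of 6842 in the control library. A barcode was put in a class when it had UMIs of at least 3 of 8 markers of that class and at least 2 more than of any other. In this way 66.7% of glioma and 95.2% of control barcodes were classed, the rest being ungated. The glioma library gave 4990 monocytes or macrophages (macrophages below), 1425 T cells, 515 neutrophils, 202 dendritic cells, 116 NK cells, 50 microglia and 30 border-associated macrophages, and the control library gave 12373 microglia, 184 erythroid cells, 134 border-associated macrophages, 129 endothelial cells, 59 T cells and 50 neutrophils. A Ptprc (CD45) UMI was seen in 89.5% of glioma and 73.0% of control barcodes. The libraries had 41 kept barcodes in common.

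Levels are counts per 1000000 UMIs of the class (CPM), a relative scale on which fewer transcripts per cell and more transcripts of other genes cannot be told apart. Each group used in a comparison carried its own markers and also those of its library's main population. Glioma neutrophils had 39611 CPM of neutrophil markers, with 1466 CPM of macrophage and 24.6 CPM of microglia markers, and control neutrophils had 161616, 685 and 1172 CPM of the same lists. Microglia markers were seen in 98.0% of control neutrophils and in 99.3% of control border-associated macrophages. The 30 glioma border-associated macrophages had 1481 CPM of their own markers and 1420 CPM of macrophage markers. The 134 of control had 5381 and 441 CPM of the same lists. The part of these other transcripts in the results was not tested, except where values without such barcodes are given.

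**Figure D2:**
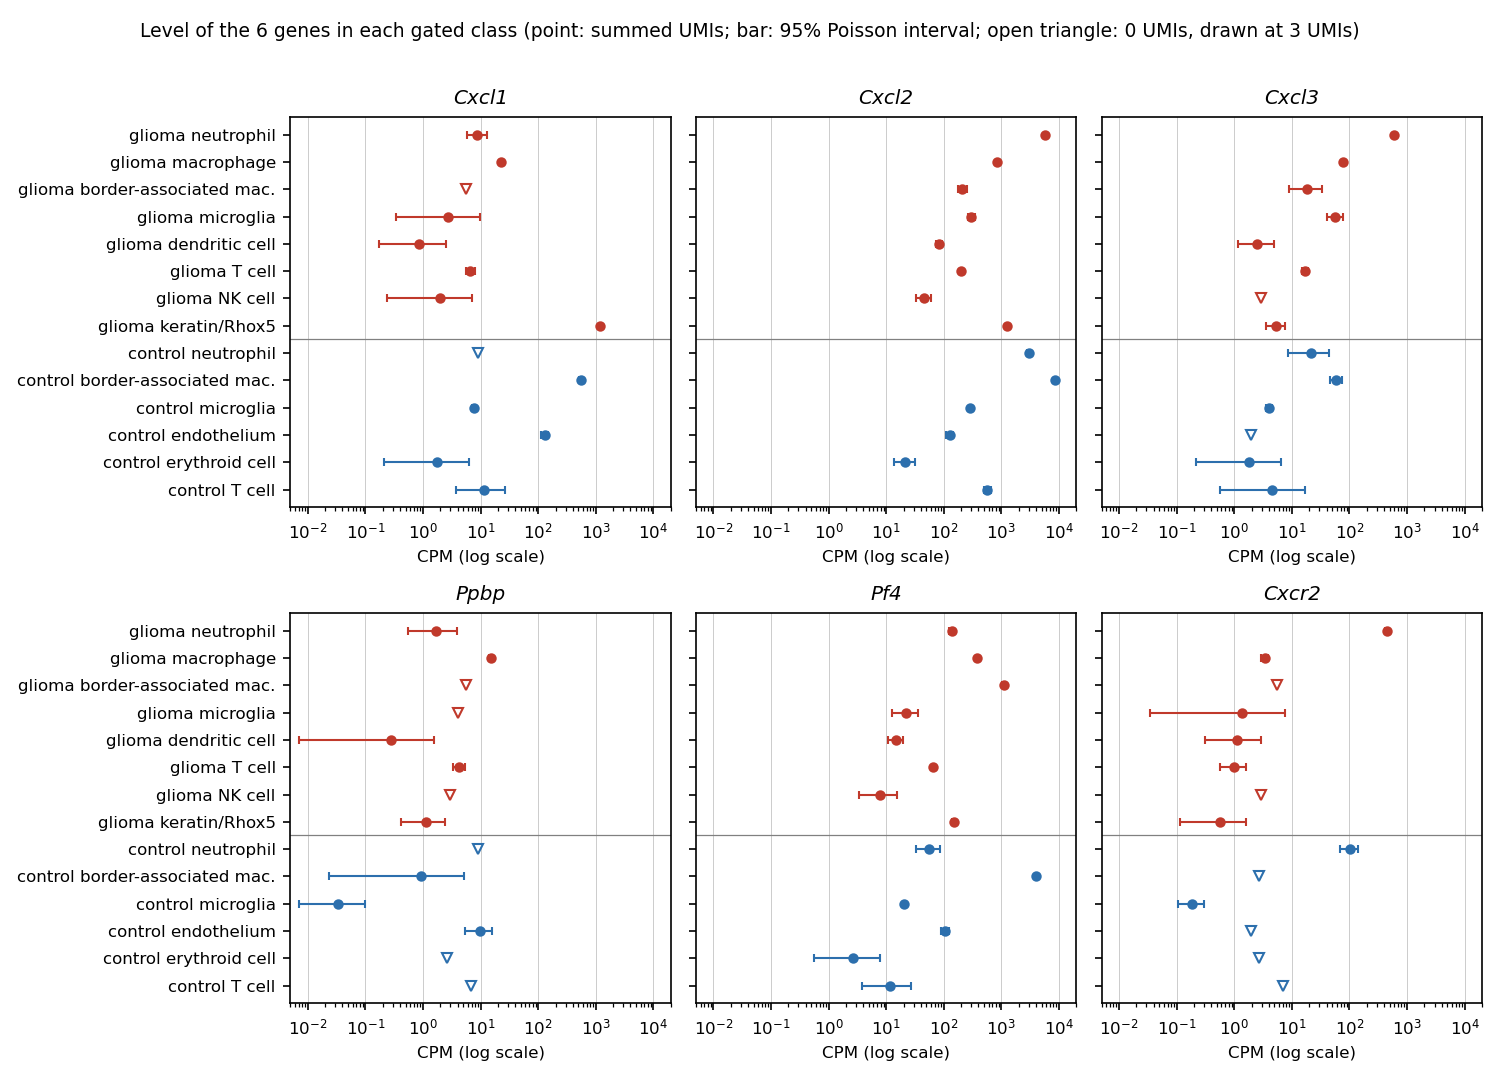
Level of each gene (horizontal axis, CPM of the class, log scale) in each class of the glioma library (red, upper rows) and the control library (blue, lower rows). Points are summed UMIs, bars are 95% Poisson intervals and open triangles mark 0 UMIs, drawn at the level of 3 UMIs. Cxcr2 stands at 443 CPM in glioma neutrophils, and Pf4 at 4032 CPM in control border-associated macrophages.

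In the glioma library Cxcr2, the receptor of the ELR ligands, was held mostly by neutrophils. It stood at 443 CPM (419 to 467) in glioma neutrophils and at 100.5 CPM (69.2 to 141) in control neutrophils. The log2 ratio was 2.12 (1.64 to 2.68), from 1313 UMIs in 515 glioma and 33 UMIs in 50 control neutrophils, and it was 1.22 with a looser gate of 2 markers. In each library the other classes were far lower: 3.36 CPM in glioma macrophages, 0.98 CPM in glioma T cells and 0.182 CPM in control microglia, and 0 UMIs in control border-associated macrophages, where 3 UMIs would be 2.74 CPM. Neutrophils were 4.66% of kept glioma barcodes and held 66.5% of the library's Cxcr2 UMIs. Control neutrophils were 0.365% of barcodes and held 34.4%, with 49.0% in ungated barcodes.

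The share of barcodes with a Cxcr2 UMI was 73.0% in glioma neutrophils (median 2708 UMIs) and 40.0% in control neutrophils (median 3624 UMIs). With every barcode thinned to 1000 UMIs the shares were 45.6% (41.3 to 50.04) in glioma and 16.0% (7.17 to 29.1) in control neutrophils. Lymphocytes, which should lack the gene, had it in 0.762% of 1575 glioma barcodes at a median of 7807 UMIs, and in 0 of 117 control barcodes at a median of 4916 UMIs, where 3 barcodes would be 2.56% of them; this limits barcodes with a UMI, not cells expressing the gene. Free RNA, read from barcodes of 1 to 100 UMIs, held 11.1 CPM of Cxcr2 in the glioma library.

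Cxcl2, an early-response ELR chemokine gene, was also highest in neutrophils among glioma classes. It stood at 5710 CPM (5625 to 5797) in glioma neutrophils and 2978 CPM (2795 to 3171) in control neutrophils, a log2 ratio of 0.94 (0.85 to 1.03). That ratio was 0.17 with the looser gate. Cxcl3, its close paralog, stood at 605 CPM (577 to 633) in glioma neutrophils and 21.3 CPM (8.57 to 43.9) in control neutrophils, a log2 ratio of 4.73 (3.78 to 6.14) that rests on 1794 and 7 UMIs. Pf4 stood at 136 CPM in glioma and 54.8 CPM in control neutrophils, both below the free RNA of the glioma library (258 CPM) and of the control library (104 CPM). Cxcl1 had 26 UMIs in glioma neutrophils and 0 in control neutrophils, and Ppbp had 5 and 0.

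In the neutrophil comparison 5 of the 6 genes had at least 20 UMIs over both sums, and 3 of them (Cxcl3, Pf4 and Cxcr2) had UMIs in both libraries and were at least 2-fold higher in glioma. Over all 7897 genes with 20 UMIs, 21% were at least 2-fold higher and 8.5% at least 2-fold lower. The median log2 ratio was 1.28 over the 5 genes, with Cxcl1 set to no difference because its bound was below 1, and 0.27 over all genes. Of 8 neutrophil trafficking genes, 1 was at least 2-fold higher (Fpr2, a formyl peptide receptor, at 171 CPM in glioma and 82.2 CPM in control neutrophils) and none was lower, with a median of -0.06. Selplg, the P-selectin ligand, was at 252 CPM in glioma and 454 CPM in control neutrophils. Of 12 genes of NF-kB feedback and transcript decay, 3 were at least 2-fold higher, with a median of 0.63. These were Ier3 (1583 CPM in glioma and 280 CPM in control neutrophils), Ptgs2, the inducible cyclooxygenase (429 CPM in glioma and 116 CPM in control), and Nfkbia, the NF-kB inhibitor (1796 CPM in glioma and 719 CPM in control).

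Among inducing cytokines and their receptors, 7 of 12 had enough UMIs in neutrophils, with 2 at least 2-fold higher and 1 lower. Over all genes 21% were higher and 8.5% lower. Il1b stood at 6252 CPM in glioma and 2132 CPM in control neutrophils, and Csf2rb, the shared beta chain of the GM-CSF receptor, at 778 and 128 CPM. Csf2 had 1 UMI in glioma and 21 UMIs in control neutrophils. Cxcr1, the sister receptor of Cxcr2, had 50 UMIs in glioma neutrophils (16.9 CPM) and 0 in control neutrophils, which is at least 1.84-fold higher against 3 UMIs. Mif, a cytokine gene of the same list, stood at 538 and 57.9 CPM.

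Within glioma neutrophils the members differed in level with the share of S100a8 and S100a9, a pair of granulocyte alarmin genes that are also gate markers. The 515 barcodes were cut into tertiles by that share. Cxcr2 stood at 172 CPM (153 to 193) in the lowest tertile, 554 CPM (502 to 609) in the middle and 1186 CPM (1092 to 1285) in the highest. Cxcl2 stood at 3516, 7777 and 9939 CPM from lowest to highest, and Cxcl3 at 354, 854 and 1066 CPM. All 3 genes were thus lowest in the lowest tertile, and none of their intervals overlapped between the lowest and the middle tertile.

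Pf4 was highest in the lowest tertile, with 180 CPM there, 63.4 CPM in the middle and 104 CPM in the highest. Depth and other transcripts moved with the tertiles. The median UMI count was 8175 in the lowest, 2525 in the middle and 2519 in the highest tertile, and macrophage markers summed to 1611, 1645 and 701 CPM. In the 123 glioma neutrophils with no macrophage or microglia marker, the log2 Cxcl2 ratio to macrophages was 3.67, against 2.78 with all 515. Barcodes of low depth lack these markers more readily, and depth was not matched, so depth and other transcripts cannot be told apart here. No control neutrophil lacked both kinds of marker.

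**Figure D3:**
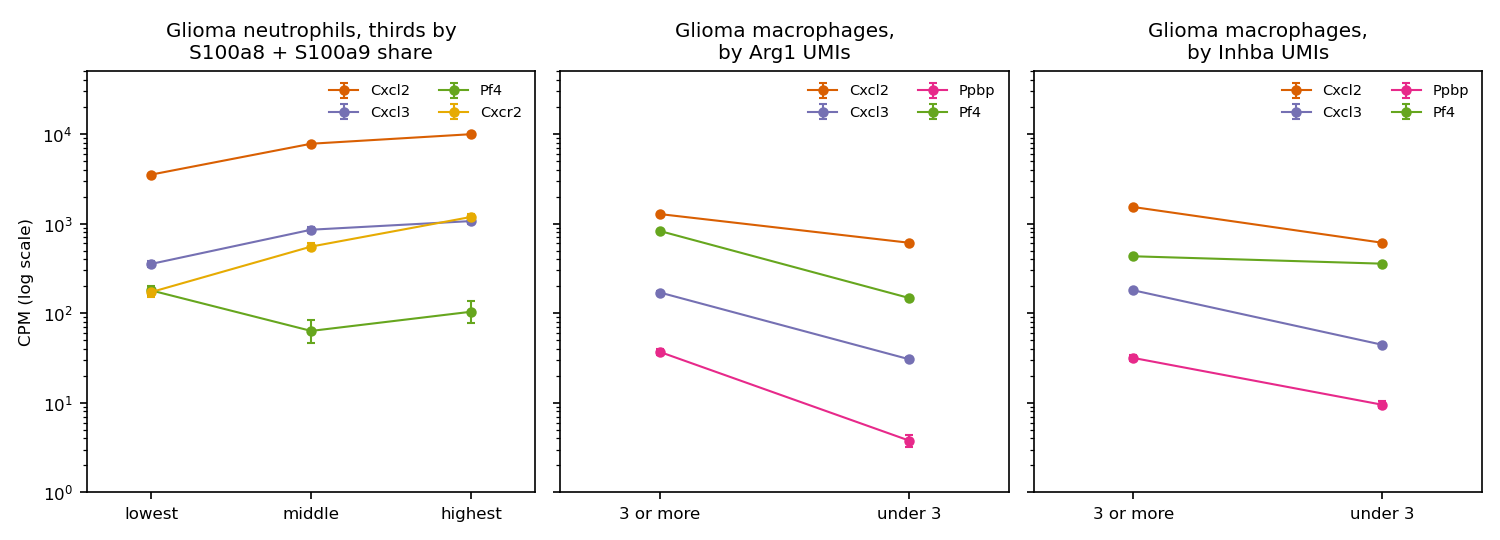
Level (vertical axis, CPM, log scale) in glioma neutrophils by tertile of S100a8 and S100a9 share, left, and in glioma macrophages with at least 3 UMIs or under 3 UMIs of Arg1, centre, or Inhba, right. Points are summed UMIs and bars are 95% Poisson intervals. Cxcr2 runs through 172, 554 and 1186 CPM over the tertiles, and Ppbp stands at 36.9 and 3.79 CPM with and without 3 Arg1 UMIs.

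Against glioma macrophages, glioma neutrophils were higher in Cxcl2, Cxcl3 and Cxcr2 and lower in Ppbp and Pf4, while the direction of Cxcl1 turned on 25 macrophage barcodes. The log2 ratios were 2.78 for Cxcl2 (2.75 to 2.80), 2.97 for Cxcl3 (2.89 to 3.04) and 7.04 for Cxcr2 (6.84 to 7.25). The Cxcl2 ratio was 2.07 with the looser gate. The ratios were -3.01 for Ppbp and -1.46 for Pf4. For Cxcl1 the ratio was -1.37 with all barcodes and 0.75 (0.09 to 1.30) without the 25 macrophage barcodes with keratin and Rhox5 markers, described below. The Cxcl1 levels, 8.76 CPM in neutrophils and 5.29 CPM in macrophages without those barcodes, were below free RNA, at 33.7 CPM. So 3 of the 6 genes were at least 2-fold higher, and 3 were at least 2-fold lower with all barcodes and 2 without those 25, where 11.7% of 12345 genes were at least 2-fold higher and 8.98% lower. Macrophages outnumbered neutrophils, so they still held 49.5% of the library's Cxcl2 UMIs, against 14.7% in neutrophils, and 55.8% of its Cxcl3 UMIs, against 19.0%. Of the neutrophil trafficking genes 6 of 8 were higher in neutrophils. Csf3r, the G-CSF receptor and also a gate marker, stood at 481 CPM in neutrophils and 25.5 CPM in macrophages, and Fpr1 at 62.3 and 7.96 CPM.

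**Figure D4:**
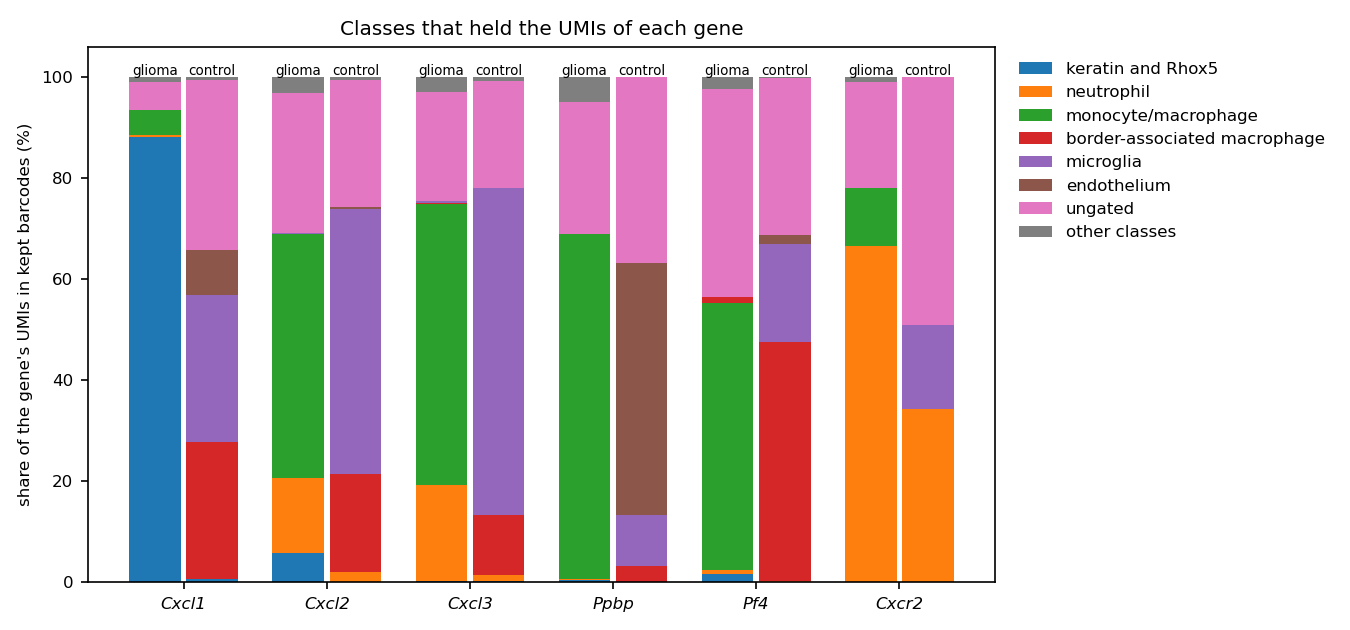
Share of each gene's UMIs in kept barcodes (vertical axis, percent) held by each class, with the glioma library in the left bar and the control library in the right bar of each pair. Each barcode is counted once, first by the keratin and Rhox5 markers and then by class. Keratin and Rhox5 barcodes held 88.3% of glioma Cxcl1, and neutrophils 66.5% of glioma Cxcr2.

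Set beside control microglia, the main myeloid class of the other library, glioma macrophages were at least 2-fold higher in Cxcl2, Cxcl3, Ppbp, Pf4 and Cxcr2. Cxcl1 made this 6 of 6 with all barcodes, but was lower in macrophages, at a log2 ratio of -0.52, without the 25 keratin and Rhox5 barcodes, which left 5 of 6. Over 14607 genes, 16.3% were at least 2-fold higher and 33.5% at least 2-fold lower. The median log2 ratio was 4.17 over the 6 genes (4.18 without those 25 barcodes) and -0.40 over all genes. This sets 2 classes and 2 libraries against each other at once, so class and group cannot be told apart. The 50 glioma microglia were not set against them; they had 299 CPM of Cxcl2, with 98 of their 217 UMIs in 1 barcode.

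Cxcl2 stood at 834 CPM (827 to 841) in glioma macrophages and 286 CPM (283 to 290) in control microglia, a log2 ratio of 1.54 (1.52 to 1.56). Cxcl3 stood at 77.3 CPM (75.3 to 79.4) in glioma macrophages and 4.03 CPM (3.62 to 4.48) in control microglia, a log2 ratio of 4.26 (4.11 to 4.42) that was 4.95 as a mean over barcodes. A Cxcl2 UMI was present in 60.7% of macrophages and 21.5% of microglia as sequenced, and in 32.1% (30.8 to 33.4) and 8.01% (7.54 to 8.50) after thinning to 1000 UMIs. For Cxcl3 the thinned shares were 4.61% (4.04 to 5.23) in macrophages and 0.275% (0.190 to 0.384) in microglia. Thinned lymphocytes gave 5.02% for Cxcl2 and 0.635% for Cxcl3 in the glioma library, and 5.13% and 0 of 117 in the control library. Free RNA held 624 CPM of Cxcl2 in the glioma library and 353 CPM in the control library. It held 59.7 CPM of Cxcl3 in the glioma library, below the macrophage level, and 4.44 CPM in the control library, above the microglial level. Free RNA thus differed between the libraries in the same direction as the classes. With free RNA taken as 5% of each sum and subtracted, the Cxcl3 log2 ratio was 4.28; larger shares were not tested.

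Pf4 stood at 375 CPM (370 to 380) in glioma macrophages and 20.7 CPM (19.8 to 21.7) in control microglia, a log2 ratio of 4.18. Control microglia were thus below the 104 CPM of free RNA in their library. Ppbp had 1016 UMIs in macrophages (14.9 CPM) and 3 UMIs in microglia, a log2 ratio of 8.54 with a counting interval of 7.22 to 11.05. Cxcr2 had 229 UMIs in macrophages (3.36 CPM) and 16 in microglia, and the macrophage level was below the 11.1 CPM of free RNA. Cxcl1 stood at 23.0 CPM in macrophages and 7.59 CPM in microglia, a log2 ratio of 1.60, but 1218 of the 1573 macrophage UMIs were in 25 barcodes with keratin and Rhox5 markers. Without those barcodes the macrophage level was 5.29 CPM, below that of control microglia. Both levels were below the Cxcl1 of free RNA, at 33.7 CPM in the glioma library and 18.8 CPM in the control library.

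**Figure D5:**
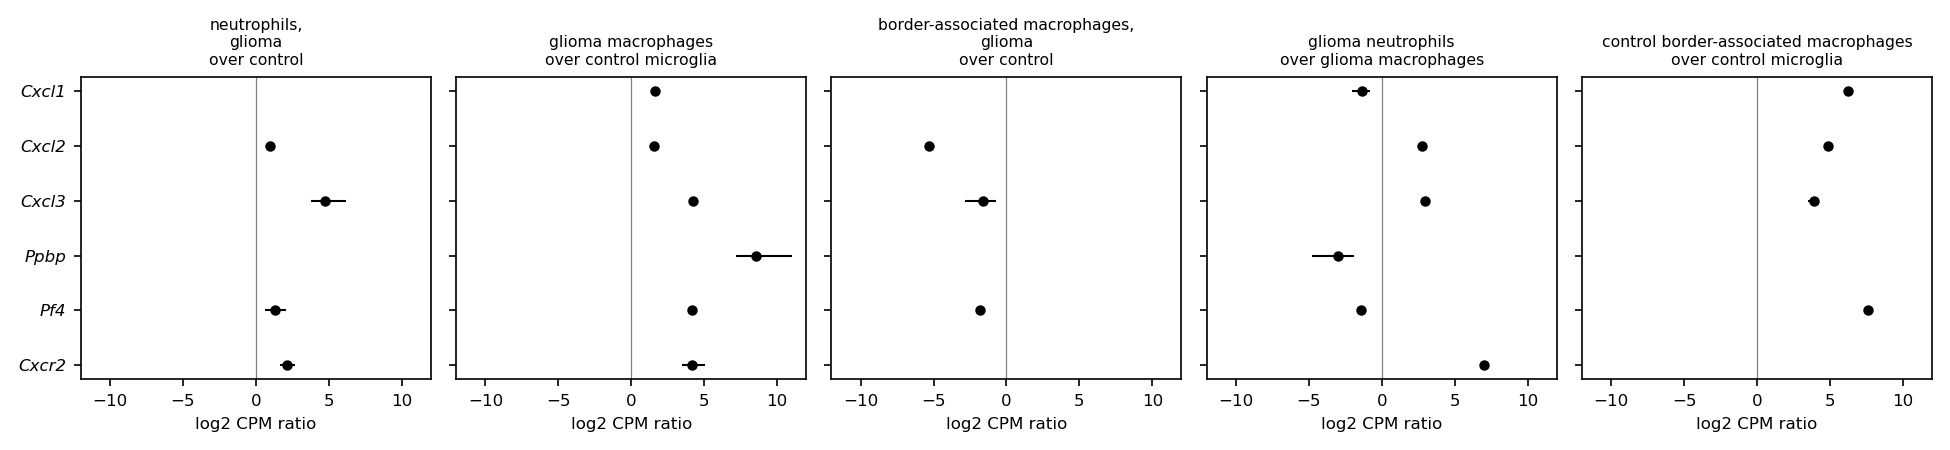
Log2 ratio of CPM (horizontal axis) for each gene in the 5 comparisons, with 95% conditional binomial intervals as bars. Genes with under 20 UMIs over both sums, or with 0 UMIs in one of them, are not drawn. All 6 genes lie right of 0 for glioma macrophages over control microglia, and 3 of 6 lie left of 0 for glioma neutrophils over glioma macrophages; without the 25 keratin and Rhox5 barcodes Cxcl1 changes side in both.

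The genes around these chemokines did not move as a block between the same classes. Over all genes of this comparison 16.3% were at least 2-fold higher and 33.5% at least 2-fold lower. Of 12 inducing cytokines and receptors, 11 had enough UMIs, with 3 at least 2-fold higher in glioma macrophages and 5 lower. Il1a stood at 28.6 CPM in glioma macrophages and 578 CPM in control microglia, and Tnf at 28.1 and 314 CPM. Csf3, the granulocyte colony-stimulating factor gene, had 116 UMIs (1.70 CPM) in macrophages and 8 UMIs in microglia. All kept glioma barcodes outside the keratin and Rhox5 set together held 85 Csf3 UMIs. Part of the 116 was therefore in macrophage barcodes of that set, and the Csf3 ratio without them was not tested. Of the NF-kB feedback genes 3 of 12 were higher and 4 lower, the lower count being near the share over all genes. Ptgs2 stood at 253 CPM in glioma macrophages and 44.2 CPM in control microglia, and Nfkbia at 375 and 1586 CPM. Of the neutrophil trafficking genes 4 of 8 were higher and 2 lower, with Fpr2 at 49.7 CPM in macrophages and 0.0684 CPM in microglia. Among receptors that bind Pf4 or other CXC ligands, 3 of 6 were higher and 2 lower, and Ccr1 stood at 301 and 17.5 CPM. Of 10 platelet granule and adhesion genes, 5 were higher and 4 lower. Gp9, a platelet glycoprotein gene, had 1 UMI in macrophages and 5815 UMIs in microglia. Thbs1, thrombospondin, stood at 2073 CPM in macrophages and 13.6 CPM in microglia, and Sparc, an extracellular matrix glycoprotein known from microglia, at 10.2 and 4135 CPM.

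Within glioma macrophages Cxcl2, Cxcl3, Ppbp and Pf4 were higher in barcodes with at least 3 UMIs of Arg1, the arginase gene, which is also 1 of the 8 gate markers. The 1557 such barcodes and the 3433 others had median depths of 12905 and 10964 UMIs. Ppbp stood at 36.9 CPM (34.4 to 39.4) with 3 Arg1 UMIs and at 3.79 CPM (3.25 to 4.40) without. Pf4 stood at 825 and 148 CPM, Cxcl3 at 170 and 30.6 CPM, and Cxcl2 at 1275 and 611 CPM in the same barcodes. Cxcr2 was at 1.75 and 4.17 CPM and Cxcl1 at 22.3 and 23.4 CPM.

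Other cuts of the macrophages separated the members from each other. With at least 3 UMIs of Inhba, an activin subunit gene, Cxcl2 stood at 1529 CPM against 611 CPM without, Cxcl3 at 180 against 44.4 CPM, and Pf4 at 431 against 357 CPM. With at least 3 UMIs of Cxcl9, an interferon-induced CXC ligand gene, the order was the other way: Cxcl2 stood at 590 CPM against 1183 CPM without, Cxcl3 at 35.7 against 137 CPM, Ppbp at 7.16 against 26.0 CPM and Pf4 at 258 against 543 CPM. With at least 3 UMIs of Chil3, a monocyte chitinase-like gene, Pf4 stood at 223 CPM against 429 CPM, while Cxcl3 stood at 119 against 62.6 CPM. Barcodes with Mki67, a proliferation gene, had 37.6 CPM of Cxcl3 against 89.0 CPM in the rest, and 386 against 372 CPM of Pf4. Median depth differed between these cuts: 11985 UMIs with Inhba against 11323 without, 15288 against 9233 for Cxcl9, 9154 against 13151 for Chil3 and 20509 against 10513 for Mki67. Macrophage markers summed to 3609 CPM with Inhba against 3244 without, 2810 against 4084 for Cxcl9, 4278 against 2997 for Chil3 and 2629 against 3540 for Mki67. Several of the lower values were below the free RNA of the glioma library. These were Cxcl2 and Cxcl3 without Inhba, Cxcl2, Cxcl3 and Ppbp with Cxcl9, Pf4 with Chil3 and Cxcl3 with Mki67.

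Single barcodes carried members together to different extents. After thinning to 1000 UMIs, Ppbp and Pf4 were seen together in 32 of 4990 glioma macrophages, where the product of their shares gives 6.08. Cxcl3 and Ppbp were seen together in 17 against a product of 1.98, and Cxcl2 and Cxcl3 in 174 against 73.7. In glioma neutrophils Cxcl2 and Cxcr2 were seen together in 206 barcodes against a product of 195, and Cxcl3 and Cxcr2 in 72 against 68.4. In control microglia Cxcl2 and Cxcl3 were seen together in 22 barcodes against 2.72. Barcodes differ in how much free RNA or RNA of a second cell they hold, and the part of this in the pairs was not tested.

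Ppbp in the glioma library was found in barcodes without platelet markers. Of 300 barcodes with a Ppbp UMI, 280 had 0 of 8 platelet markers, 20 had 1 and none had more. So 6.67% (4.12 to 10.1) had any, against 4.64% of the 10749 barcodes without Ppbp. Their median depths were 17799 and 11181 UMIs, and depth was not matched. Of the 36 barcodes with at least 10 Ppbp UMIs, which held 63.1% of its UMIs, 35 had no platelet marker, 35 had Pf4 and 24 were macrophages by the gate. No barcode passed the platelet gate in either library. Gp1bb, a defining platelet marker, and Tubb1 of the platelet list were at 0 UMIs over all glioma barcodes, and Clec1b, another defining marker, had 485 UMIs. Tubb1 was at 0 UMIs in the control library too.

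In the control library Ppbp had 30 UMIs in 19 barcodes, and 15 of these UMIs were in 8 endothelial barcodes. Platelet markers were present in 6 of the 19, and the 1 barcode with at least 3 Ppbp UMIs had 2 or more of them. For Pf4, 264 of 4234 positive glioma barcodes had 1 platelet marker and 2 had more, and 35 of 859 positive control barcodes had 1 and 2 had more. A Pf4 UMI was seen in 38.3% of kept glioma barcodes and a Ppbp UMI in 2.72%, against 6.28% and 0.139% of control barcodes, at different depths. The same shares in lymphocytes were 12.2% for Pf4 and 0.698% for Ppbp in the glioma library, and 8.55% and 0 of 117 in the control library. Free RNA of the glioma library held 258 CPM of Pf4 and 8.57 CPM of Ppbp, so these shares are not read as the number of cells expressing either gene.

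In the normal brain Pf4 and Cxcl2 were highest in border-associated macrophages. Pf4 stood at 4032 CPM (3914 to 4153) in 134 control border-associated macrophages and 20.7 CPM in control microglia, a log2 ratio of 7.60 (7.52 to 7.68) that was 8.31 with a stricter gate of 4 markers, and 98.5% of these macrophages had it. Cxcl2 stood at 8450 CPM (8279 to 8624) in border-associated macrophages and 286 CPM in microglia, a log2 ratio of 4.88. It was unevenly spread, with 15 of the 134 barcodes holding at least 50% of its UMIs, against 34 for Pf4. Cxcl1 stood at 564 CPM in border-associated macrophages and 7.59 CPM in microglia, from 618 UMIs in 22 barcodes, and Cxcl3 at 59.4 and 4.03 CPM, from 65 UMIs in 10 barcodes.

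All 4 of the members with at least 20 UMIs in that comparison were at least 2-fold higher in border-associated macrophages, where 14.6% of 13654 genes were higher and 17.5% lower. Their median log2 ratio was 5.55, against -0.15 over all genes. Il1b stood at 2903 CPM in border-associated macrophages and 361 CPM in microglia, and Ccr1 at 347 and 17.5 CPM. Nfkbia stood at 727 and 1586 CPM and Tnf at 155 and 314 CPM, so genes of the inducing and feedback lists went both ways, with 3 of 10 and 3 of 12 higher and 1 of each lower. Control endothelium had 130 CPM of Cxcl1, with 22 of 129 barcodes positive, and 0 UMIs of Cxcl3.

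The 30 glioma border-associated macrophages had a lower CPM than the 134 of control for every member that could be counted. They were also lower in the markers of their own gate, at 1481 CPM against 5381 CPM in control. Macrophage markers were higher, at 1420 CPM against 441 CPM. The part of this difference in class make-up in the ratios was not tested. Pf4 stood at 1130 CPM (1043 to 1224) in glioma and 4032 CPM in control, a log2 ratio of -1.83 (-1.96 to -1.71), with 96.7% and 98.5% of barcodes positive. Cxcl2 stood at 211 CPM (174 to 253) in glioma and 8450 CPM in control, a log2 ratio of -5.32. Cxcl1 had 0 UMIs in glioma and 618 in control, at least 102-fold lower against 3 UMIs. Cxcl3 had 10 and 65 UMIs, a log2 ratio of -1.62 (-2.81 to -0.71). So 4 of 4 were at least 2-fold lower, with 14.7% of 6748 genes lower and 17.5% higher.

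In the same comparison 10 of 12 NF-kB feedback genes were at least 2-fold lower, none was higher, and their median log2 ratio was -1.38, against 0.12 over all genes. Ptgs2 had 5 UMIs in glioma and 237 UMIs in control, and Nfkbiz stood at 55.4 and 282 CPM. Of the inducing cytokines and receptors 8 of 12 could be counted, with 1 at least 2-fold higher and 4 lower. The shares over all genes were 17.5% higher and 14.7% lower. Il1b stood at 443 CPM in glioma and 2903 CPM in control, Il1a at 31.4 and 554 CPM, and Csf2 had 0 and 20 UMIs. Csf2rb was higher in glioma, at 338 CPM against 63.0 CPM in control. Mif stood at 495 and 105 CPM, and Thbs1 at 545 and 32.9 CPM, so some genes of the other lists were higher in glioma.

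Control microglia showed a wide spread of Cxcl2. With 0 UMIs over Il1a, Tnf and Gpr84, a set of microglial activation genes, Cxcl2 stood at 67.6 CPM (63.0 to 72.5) in 2440 barcodes. It stood at 111 CPM (107 to 115) with 1 to 2 such UMIs and at 417 CPM (411 to 422) with 3 or more. Cxcl3 stood at 1.04, 3.37 and 5.01 CPM and Cxcl1 at 3.37, 6.67 and 8.96 CPM over the same steps. Pf4 stood at 22.4, 17.7 and 21.8 CPM. Median depth was 4402, 6082 and 7810 UMIs over these steps, and Il1b, which was not used for the cut, stood at 60.8, 76.2 and 561 CPM. Of the microglial Cxcl2 UMIs, at least 50% were in 135 of 12373 barcodes.

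Cxcl1 in the glioma library was concentrated in a small set of barcodes. These were found with 6 genes chosen after their values were seen: the keratins Krt8 and Krt18, the homeobox gene Rhox5, the intermediate filament gene Nes, and Tm4sf1 and Flnc. Barcodes with at least 3 of the 6 numbered 135, or 1.22% of the library, and held 88.3% (87.5 to 89.0) of its 7212 Cxcl1 UMIs. Cxcl1 stood at 1182 CPM (1153 to 1212) in them, with 89.6% positive. Ptprc was absent from 102 of the 135 barcodes, and their median depth was 36045 UMIs. By class 103 were ungated, 25 macrophages, 4 mural cells or fibroblasts, 1 a T cell, 1 a mast cell or basophil and 1 endothelial.

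Other members were distributed differently in these 135 barcodes. Cxcl2 stood at 1254 CPM and was 5.87% of the library's Cxcl2, and Cxcl3 stood at 5.39 CPM, from 29 UMIs. Pf4 stood at 151 CPM, below free RNA, Ppbp had 6 UMIs and Cxcr2 had 3. Genes of the lists also stood apart there. Csf3 had 407 UMIs (75.6 CPM) in the 135 barcodes and 85 UMIs (0.599 CPM) in all others. Cxcl5, an ELR ligand of Cxcr2, had 40 UMIs and 35 UMIs, and Il1r1, the interleukin 1 receptor, had 141 and 144 UMIs. The inducing cytokine gene Il1b was lower, at 100 CPM in the 135 barcodes and 2342 CPM in the others.

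Genes with the most similar pattern over classes differed from member to member. Likeness was Pearson's r of log2(CPM + 10) over 12 class-by-library groups of at least 50 barcodes, among 11788 genes, and the groups share 2 libraries and their free RNA. Stfa1 (r = 0.996), Lilra6 (0.992) and Gm5483 (0.991) were nearest to Cxcr2. F13a1 (0.963), Nlrc4 (0.962) and Mrc1 (0.956) were nearest to Pf4, of which Mrc1 is a gate marker. Olr1 (0.957), Gm49339 (0.951) and Map3k15 (0.942) were nearest to Cxcl3. Notch2 (0.938), Cd14 (0.933) and Cited2 (0.928) were nearest to Cxcl2, Bmp2 (0.938), Fam43a (0.936) and Hbegf (0.936) to Cxcl1, and Col3a1 (0.954), Pgf (0.949) and Htra4 (0.939) to Ppbp. The keratin and Rhox5 barcodes, with 88.3% of glioma Cxcl1 UMIs, were not a group of their own here. Ppbp was low against the 10 CPM added, with its highest levels 14.9 CPM in glioma macrophages and 9.62 CPM in control endothelium.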

How the data were processed

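The authors deposited raw UMI counts, 1 matrix per group listing every barcode of the kit, not normalized, per the file headers. Per the submitters' processing notes, Cell Ranger 3.0.2, STAR and Seurat 3 were used and mm10 and GRCh38 were the builds; all gene identifiers in the matrices were mouse ones. Barcodes were kept, classed by 16 marker lists and summed as described above. No doublet caller was run, and an alternative left out barcodes above 40000 UMIs. Log2 ratios compare CPM after 0.5 UMIs were added to both sums. Intervals were Poisson for sums, Clopper-Pearson for shares and conditional binomial for ratios. Only the ratio intervals were tried on simulated data, for the neutrophil comparison. Those counts were Poisson draws, as the intervals assume, so the trial says nothing of UMIs clumped in few barcodes. Folds against 0 UMIs used 3 UMIs of that class sum. Free RNA came from barcodes of 1 to 100 UMIs with under 300 UMIs in the other library. The members and lists were chosen with earlier results of these data known. Genes named are the 6 members, genes among the 4 of each list with the largest ratio in a comparison and at least 20 UMIs, and the 3 genes nearest to each member among those with at least 200 UMIs. The keratin and Rhox5 set, the list genes named in its barcodes, and Il1b in the microglial steps, and which lists and which of the 4 genes were named, were chosen after their values were seen. Alternatives changed the filters, gates, scaling and free RNA. Python, NumPy, SciPy and pandas were used.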

Additional observations from a re-analysis of the deposited data

How the results depend on the processing

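No paired analysis was possible because each group is 1 pooled library without sample labels on the barcodes, and no replicate was left out for the same reason. The 7 planned log2 ratios kept their direction under all 85 computed alternatives, and 60 values stayed inside the interval of the value reported above. The 2 neutrophil comparisons between libraries had no value in barcodes without macrophage or microglia markers. The cause of the movements below was not tested.

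For Cxcl2 in glioma over control neutrophils, the log2 ratio was 0.82 at a minimum of 2000 UMIs, 1.27 at a mitochondrial limit of 5%, 0.17 under a looser gate and 0.84 as a mean over barcodes. For Cxcr2 it was 1.22 under the looser gate. For glioma macrophages over control microglia, Cxcl2 was 1.68 at the 5% limit, 1.32 and 1.81 under looser and stricter gates, 2.06 as a mean over barcodes and 1.58 after subtraction of free RNA at 5% of each sum; Cxcl3 was 4.02, 4.63 and 4.95 under looser gate, stricter gate and mean over barcodes. Pf4 in glioma over control border-associated macrophages was -2.28 at the 5% limit, with 9 glioma barcodes left, and -2.17 under the looser gate. For glioma neutrophils over macrophages, Cxcl2 was 2.67 at 2000 UMIs, 2.07 and 3.04 under the gates, 3.38 as a mean over barcodes, 2.82 after subtraction and 3.67 in neutrophils without macrophage or microglia markers. Pf4 in control border-associated macrophages over microglia was 7.12 and 8.31 under the gates, 7.84 as a mean over barcodes and 8.02 after subtraction. Leaving out the keratin and Rhox5 barcodes, an alternative added after seeing the data like the last neutrophil one, moved none of the 7 beyond its interval. It reversed Cxcl1, to -0.52 for glioma macrophages over control microglia and to 0.75 for glioma neutrophils over macrophages. The Cxcl1 levels behind both of these values were below the free RNA of their library. The keratin and Rhox5 share of glioma Cxcl1 was 91.0% at 2 markers, 84.3% at 4 and 73.4% in barcodes without Ptprc.

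A minimum of 100 UMIs in place of 20 left 744 and 185 genes in place of 1662 and 671 at least 2-fold higher and lower in neutrophils, 327 and 373 in place of 1182 and 992 in border-associated macrophages, 888 and 647 in place of 1445 and 1108 for glioma neutrophils over macrophages, and 1023 in place of 1990 higher in control border-associated macrophages over microglia. Depth limits Ppbp and Cxcr2 outside their main classes and Cxcl3 in control neutrophils (7 UMIs).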
